A study of Mus musculus with 10 samples.

Results

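The regions described here are H3K27Ac peaks of formalin-fixed, paraffin-embedded (FFPE) mouse liver that stood beside, but not on, the H3K27Ac peaks of fresh frozen mouse liver. A region was included when it was a peak on chromosomes 1 to 19 of the first library made at 65 °C with 5 min of sonication, met a peak of the second such library, met no fresh frozen peak, and lay within 5000 bp of one, edge to edge. Peaks meet when they share at least 1 bp. Of the 59431 peaks of the first library on these chromosomes, 40101 met a peak of the second library and 17083 of those met no fresh frozen peak. Within 5000 bp of a fresh frozen peak lay 13893 of the 17083, and these are called flanking peaks. The other 3190 are called far peaks, and the 23018 shared peaks that met a fresh frozen peak serve as a further comparison. Presence in both libraries, absence from the fresh frozen list and the distance were the values that the regions were chosen by, so these are given as a description and support nothing.

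Acetylation of histone H3 at lysine 27 (H3K27Ac) sits on nucleosomes at active promoters and enhancers. It often spreads over several nucleosomes on either side of the open site where transcription factors bind, so that a single regulatory element can give a row of signal maxima with dips between them. Dimethylation of lysine 4 of the same histone (H3K4me2) also marks promoters and enhancers, whether or not they carry the acetyl mark. Formalin links proteins to DNA throughout the tissue. FFPE chromatin therefore has to be freed by heat or by protease before it can be sheared and immunoprecipitated.

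All samples were normal mouse liver, collected as full sections, and strain, sex and age were not given in the labels. The 65 °C, 5 min group had 2 FiTAc-seq libraries (H3K27Ac, FFPE tissue heated overnight in detergent buffer with SDS). The conditions of 50 °C with 5 min, 50 °C with 40 min, 65 °C with 40 min and 80 °C with 40 min had 1 FiTAc-seq library each. FFPE liver opened with proteinase K (FiT-seq) gave 1 library for H3K4me2 and 1 for H3K27Ac, and fresh frozen liver, crosslinked briefly with formaldehyde, gave 1 H3K27Ac library. The labels do not say whether frozen and fixed tissue, or both libraries of the pair, share an animal. The data were 1 list of peaks per library, with a value for each peak and no read counts, so the sequencing depth is unknown. The labels do not name the value, and it was read as a −log10 q-value throughout. The long lists held between 38410 and 65332 peaks for FFPE H3K27Ac, 48250 for fresh frozen H3K27Ac and 11751 for H3K4me2. Since only 1 condition had more than 1 library, no test between conditions was made, and peaks are not replicates. Intervals on shares are Wilson 95% intervals, which cover counting error only, and the spread over the 19 chromosomes is given beside them.

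Flanking peaks were mostly narrow and low. Their median width was 329 bp, with quartiles of 213 and 541 bp, and their median −log10 q-value was 6.73 in the first library and 7.74 in the second. The second-library value is that of the highest peak that met each region. For 2879 flanking peaks (20.7%), a second-library peak that met them also met a fresh frozen peak, so 7.74 may include values from fresh frozen sites. The 14524 second-library peaks that met flanking peaks had a median value of 6.63. Far peaks had a median width of 327.5 bp and median values of 6.73 and 6.63. Shared peaks on a fresh frozen peak were wider and higher, with a median width of 988 bp and median values of 17.9 and 15.8. Of the flanking peaks, 913 (6.57%) had the smallest width in the list, 146 bp, whereas 1121 (8.07%) reached at least 1000 bp and 185 at least 2000 bp. Only 26 ranked among the 5000 highest peaks of the first library. Across the 13893 flanking peaks, the values of the 2 libraries had a Spearman's rho of 0.32. For the 3190 far peaks it was 0.40, and for the 23018 peaks on fresh frozen peaks 0.86. These are descriptions across peaks of 1 tissue, in lists cut off below by their calling thresholds.

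The highest flanking peaks were found in every long FFPE H3K27Ac list. The first by mean rank in the pair was a 3574 bp peak at chromosome 2, 172978428 to 172982001 (mm9), whose left edge was 534 bp from a fresh frozen peak. Its −log10 q-value was 79.0 and 51.9 in the pair (ranks 942 and 1802), 62.3 at 65 °C/40 min, 28.5 at 50 °C/40 min, and 7.57 at 50 °C/5 min. The fresh frozen peak beside it was 566 bp wide and ranked 16517 in its own list. It was thus among the 2000 highest peaks of 3 of the 5 lists (rank 1703 at 65 °C/40 min) and ranked 8469 and 10642 in the others.

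At chromosome 1, 60623771 to 60624677, a 907 bp peak stood 248 bp from a fresh frozen peak ranked 3852. It had values of 45.0 and 82.4 in the pair (ranks 3876 and 275), 41.5 at 65 °C/40 min, 65.8 at 50 °C/40 min, and 15.1 at 50 °C/5 min. In the second library and at 50 °C/40 min the peak that met it was far wider, at 5358 and 5279 bp, against 766 bp at 65 °C/40 min. Both wide peaks also covered the fresh frozen peak, so 82.4 and 65.8 are values of peaks on a fresh frozen site. Where one list gave a separate narrow peak, another gave a single broad one over the same place.

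A pair of the 10 highest lay on either side of the highest peak of the first library, chromosome 7, 38967744 to 38971966, which had a value of 214. One was 996 bp wide, at 38964622 to 38965617, with values of 51.4 and 48.3 in the pair, and its nearest fresh frozen peak, ranked 2544, also met an H3K4me2 peak. The other was 3750 bp wide, at 38978415 to 38982164, with values of 47.9 and 59.1, and its nearest fresh frozen peak, of 148 bp, ranked 36334. Both were found after 40 min at 65 °C (27.7 and 45.3) and at 50 °C (37.5 and 33.4), and after 5 min at 50 °C (14.5 and 11.8). On chromosome 16, 23025317 to 23027845, the flanking peak was 151 bp from a fresh frozen peak ranked 5835. Its values were 48.3 and 47.9 in the pair, 28.9 at 65 °C/40 min, 17.4 at 50 °C/40 min, and 12.4 at 50 °C/5 min. The others of the 10 lay on chromosomes 6, 7, 8 and 17. For those on chromosomes 6 and 17, and at chromosome 7, 77508200 to 77513421, the second-library peak also covered the nearest fresh frozen peak. Their second-library values and ranks are thus those of peaks on a fresh frozen site. None of the 10 met a peak of the 80 °C list or of either FiT-seq list.

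**Figure D1:**
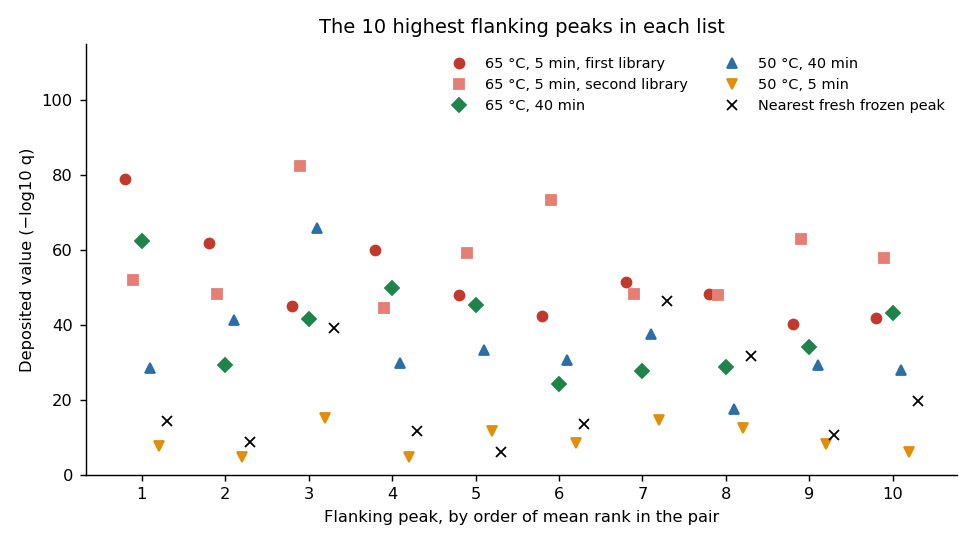
Deposited value, read as −log10 q (vertical axis), of the 10 highest flanking peaks, in order of mean rank in the 65 °C, 5 min pair (horizontal axis), with 1 symbol per list. Some symbols belong to wide peaks that also covered the nearest fresh frozen peak. Values depend on each library's depth and background, so heights may be compared along a list and not between lists; the 50 °C, 5 min values lie between 4.75 and 15.1, and the nearest fresh frozen peaks (crosses) between 5.96 and 46.3.

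The widest flanking peaks were broad blocks. The widest, chromosome 14, 26289931 to 26297565, spanned 7635 bp and had values of 39.2 and 19.8 in the pair, with fresh frozen peaks 3975 bp to its left and 2628 bp to its right. Next came chromosome 15, 7090272 to 7097335, of 7064 bp, with values of 37.6 and 36.7. The second-library peak there also covered the nearest fresh frozen peak. At chromosome 15, 58841201 to 58847085, a 5885 bp peak had 17.3 in the first library. In the second, a 10605 bp peak with 63.0 met only its left end, stopping at 58841542. That second-library peak also met the fresh frozen peak 4885 bp to the left of the block, so 63.0 is a value of a peak on a fresh frozen site. On the same chromosome, the 5510 bp peak at 58809658 to 58815167 had 30.8 in the first library. In the second, a 13352 bp peak with 71.3 met only its right end, from 58814693, and covered the nearest fresh frozen peak. The last, chromosome 10, 41987239 to 41992798, had 28.5 and 23.2 in the pair. At 50 °C/40 min a 7335 bp peak with a value of 82.4 and rank 496 met it and also covered the nearest fresh frozen peak. At 65 °C/40 min the peak that met it was only 476 bp wide, with a value of 27.1. Each of the 5 blocks was found in every long FFPE H3K27Ac list, while the width of the peak there differed between lists. Values of peaks that covered a fresh frozen peak are not heights of the block alone.

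Flanking peaks crowded towards the fresh frozen peaks. The median distance was 1037 bp, with quartiles of 406 and 2188 bp, and 4246 (30.6%) lay within 500 bp and 9990 (71.9%) within 2000 bp. The count per 250 bp was highest between 250 and 500 bp. At the inner end, 6 peaks touched a fresh frozen peak with no base between, such as chromosome 9, 114691056 to 114691610. It began where a fresh frozen peak ended and had values of 7.84 and 17.7, the latter from a peak that also covered the fresh frozen peak. At the outer end, the members just inside the limit were at 4993 to 4997 bp, with first-library values of 5.66 to 15.2, and the shared peaks just outside were at 5001 to 5007 bp, with values of 4.78 to 6.46. Closeness to the fresh frozen list was not particular to shared peaks. Of all 33205 first-library peaks without a fresh frozen peak, 77.7% lay within 5000 bp of one. Among the single libraries the share was 87.0% (86.4 to 87.5) at 50 °C/5 min, 83.9% (83.5 to 84.3) at 50 °C/40 min, 84.1% (83.7 to 84.5) at 65 °C/40 min, and 59.1% (57.4 to 60.7) for H3K4me2. In the other direction, 34.2% (33.4 to 35.1) of the 12591 fresh frozen peaks that met no first-library peak lay within 5000 bp of one.

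**Figure D2:**
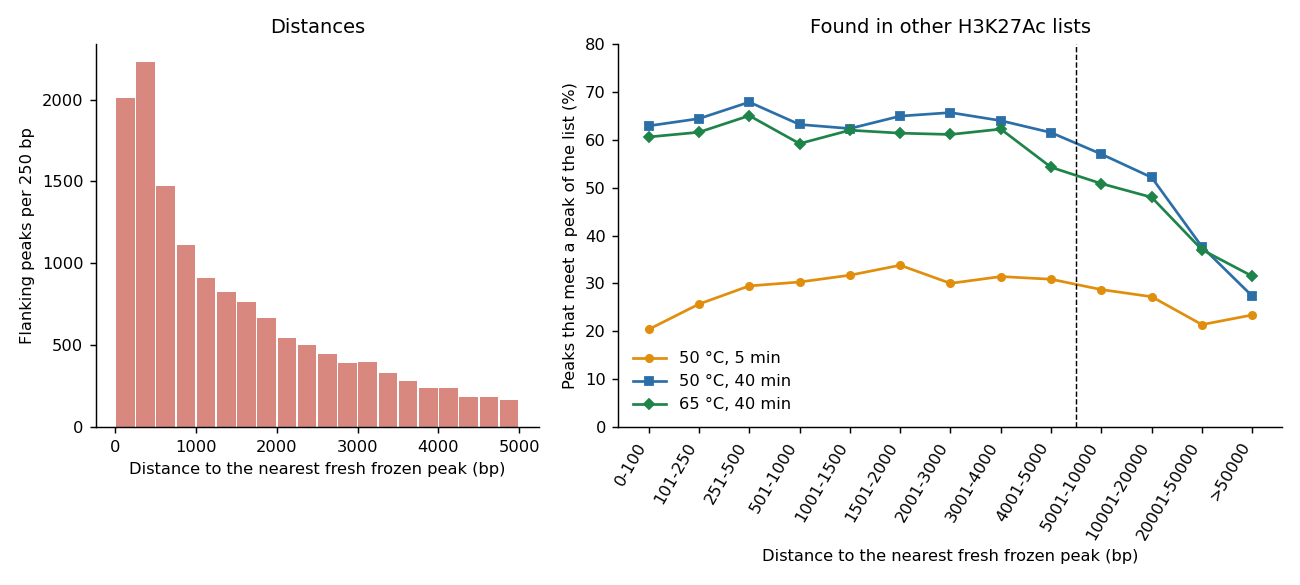
Left, number of flanking peaks per 250 bp of distance to the nearest fresh frozen peak. Right, share of shared peaks without a fresh frozen peak that met a peak of each FiTAc-seq list (vertical axis, percent), by distance (horizontal axis, unequal steps); the dashed line is the 5000 bp limit between flanking and far peaks. For both lists of 40 min the share lies between 54.3% and 67.9% up to the limit and is 27.4% and 31.5% beyond 50000 bp.

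The flanking peaks stood in rows with other peaks of their own library. On the side of the fresh frozen peak, the gap to the next first-library peak had a median of 218 bp, against 910 bp on the side away from it. The gap toward was the smaller one for 9980 of the 13893 (71.8%), and its median was smaller on 19 of 19 chromosomes (199.5 to 257 bp toward, 657.5 to 1988.5 bp away). The next peak toward was itself on a fresh frozen peak for 7924 (57.0%), was another flanking peak for 3975 (28.6%) and was a peak not shared with the second library for 1975 (14.2%). For 12096 (87.1%), that next peak began before the fresh frozen edge was reached. The gaps come from the lists that chose the regions, and 73.3% of all fresh frozen peaks were met by a first-library peak, so a neighbour on that side follows in part from the choice. The nearest fresh frozen peak was itself met by a first-library peak for 13024 flanking peaks, or 93.7% (93.3 to 94.1).

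Closing the gaps counts the flanking peaks that could be linked to a first-library peak on a fresh frozen site. When first-library gaps no larger than 100 bp were closed, 1355 flanking peaks (9.75%) were joined to one, with up to 300 bp 7066 (50.9%), with up to 500 bp 9176 (66.0%) and with up to 2000 bp 12515 (90.1%). No peaks of this library were closer than 76 bp. Closeness to fresh frozen sites was part of the choice of regions, so the joined shares follow in part from it. The same count was not made for other first-library peaks. Stretches without a called peak were bridged and no read counts were at hand, so continuity of the signal was not tested. In rows linked by gaps of up to 500 bp, 6623 flanking peaks were the first step from a peak on a fresh frozen site, 1639 the second, 567 the third and 347 lay farther out, up to the ninth. Median values were 7.11, 6.73, 7.54 and 7.54 for these steps, and median widths 330, 340, 358 and 367 bp. The remaining 4717 (34.0%) had no such link, with a median distance of 2366 bp and a median width of 317 bp. When every list had its gaps closed up to 500 bp before the rule was applied, 3652 regions fulfilled it.

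**Figure D3:**
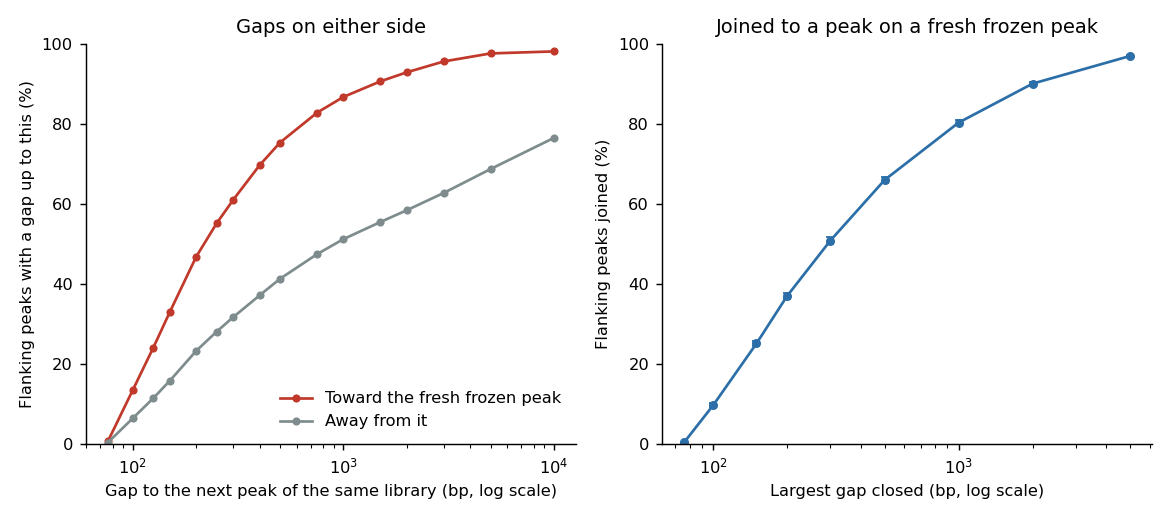
Left, share of flanking peaks (percent) whose gap to the next peak of the same library is no larger than the value on the horizontal axis (bp, log scale), toward the nearest fresh frozen peak and away from it; at 500 bp the shares are 75.4% and 41.3%. Right, share of flanking peaks joined to a first-library peak on a fresh frozen peak (percent, Wilson 95% intervals) when gaps up to the value on the horizontal axis are closed.

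Fresh frozen peaks stood within 5000 bp on both sides of 3219 flanking peaks (23.2%), and on 1 side of 10674. Peaks between fresh frozen peaks had a median width of 344 bp and a median value of 7.45, and the one-sided a median width of 325 bp and a median value of 6.73. Between fresh frozen peaks, 70.7% met a peak at 50 °C/40 min and 66.9% at 65 °C/40 min, against 62.5% and 59.5% of the one-sided. The order was the other way for H3K4me2, at 0.652% between fresh frozen peaks and 1.91% one-sided.

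Most flanking peaks were found again in each list of 40 min, but not in that of 50 °C/5 min. These libraries had no part in choosing them. At 50 °C/40 min, 8952 flanking peaks (64.4%, 63.6 to 65.2) met a peak, against 63.3% of all first-library peaks. At 65 °C/40 min, 8511 (61.3%, 60.4 to 62.1) did, against 61.1% of all. At 50 °C/5 min, 4152 (29.9%, 29.1 to 30.7) did, against 35.9% of all. For both lists of 40 min, then, the flanking share was near the share of the whole library, and at 50 °C/5 min it was below it. The whole library is an unlike background, since all flanking peaks were shared with the second library by rule. It includes 19330 peaks not so shared, of which 29.2% met a peak at 50 °C/40 min, 26.2% at 65 °C/40 min and 7.06% at 50 °C/5 min. Of the flanking peaks, 2664 (19.2%) were in all 3 lists, 5251 (37.8%) in 2, 3121 (22.5%) in 1 and 2857 (20.6%) in none, against 29.9%, 27.1%, 16.2% and 26.7% of all first-library peaks. Far peaks were in all 3 in 13.0% and in none in 33.8%, and peaks on fresh frozen sites in 62.5% and 2.96%. The commonest of these patterns was presence in both lists of 40 min without the 50 °C, 5 min list, with 4493 flanking peaks (32.3%), against 22.8% of far peaks, 27.4% of peaks on fresh frozen sites and 24.4% of all. Sonication time and temperature were changed in single libraries whose lists differ in length and in their smallest gap (36 bp in both lists of 40 min, 76 bp in those of 5 min), and these cannot be told apart in the shares.

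Flanking peaks lay between far peaks and peaks on fresh frozen sites in how often the other 3 long FiTAc-seq lists held them. Far peaks met a peak at 50 °C/40 min in 48.6% (46.8 to 50.3), at 65 °C/40 min in 45.2% (43.5 to 47.0) and at 50 °C/5 min in 26.5% (25.0 to 28.0). On fresh frozen peaks the shares were 93.4% (93.1 to 93.8), 92.5% (92.2 to 92.8) and 65.0% (64.4 to 65.6). Flanking minus far was 15.9 points at 50 °C/40 min and 16.0 points at 65 °C/40 min. Over the 19 chromosomes these differences averaged 15.3 ± 5.37 and 15.8 ± 5.37 points (SD) and were positive on 19 of 19. At 50 °C/5 min the difference was 3.43 points, averaged 3.31 ± 4.28 over the chromosomes and was positive on 15 of 19. That last difference was within the spread between chromosomes, and was -0.10 points when every list had its gaps closed up to 500 bp.

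**Figure D4:**
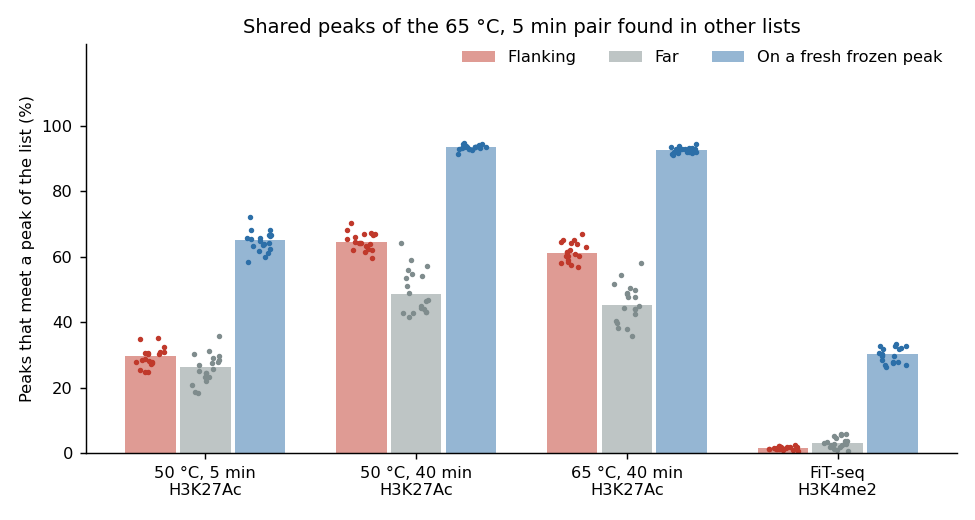
Share of peaks (bars, percent) that met a peak of each of 4 lists, for flanking peaks, far peaks and peaks on a fresh frozen peak, with 1 point per chromosome (1 to 19). In both lists of 40 min every chromosome has a higher share for flanking than for far peaks, whereas for H3K4me2 both groups lie below 6%, against 26.4% to 33.5% on fresh frozen peaks.

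The difference at 40 min was also present within classes of width and of value. Shared peaks without a fresh frozen peak were split into 4 equal classes by width, and in each class flanking peaks were found more often than far peaks, by 13.6 to 19.1 points at 50 °C/40 min and by 14.4 to 17.2 points at 65 °C/40 min. In 4 classes of first-library value the differences were 12.0 to 18.8 and 13.7 to 16.3 points. Wider peaks were found more often in any case. In the widest class (540 to 7635 bp) 87.8% of flanking and 68.8% of far peaks met a peak at 50 °C/40 min, and in the narrowest (146 to 213 bp) 45.3% and 31.8%. The highest class of value reached from 9.81 to 79.0, so peaks of a class were not matched in width or value. Peaks of the 40 min lists without a fresh frozen peak mostly lay within 5000 bp of one (83.9% at 50 °C, 84.1% at 65 °C). The part of width, value and this nearness in the difference was not tested.

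By distance, the shares in both lists of 40 min were lower in every step beyond 4000 bp than in any step closer in. Up to 4000 bp, the share in the 50 °C, 40 min list was between 62.3% and 67.9% in every step, and in the 65 °C, 40 min list between 59.2% and 65.0%. At 50 °C/40 min it was 61.5% at 4001 to 5000 bp, 57.0% at 5001 to 10000 bp, 52.1% at 10001 to 20000 bp, 37.7% at 20001 to 50000 bp and 27.4% for the 457 peaks farther away. The 65 °C, 40 min list gave 54.3%, 50.8%, 48.0%, 37.0% and 31.5% over the same steps. The 50 °C, 5 min list differed at the inner end. Its share was 20.4% within 100 bp, 25.7% at 101 to 250 bp and 29.5% at 251 to 500 bp, and between 30.0% and 33.8% from there to 5000 bp. Peaks within 100 bp were narrower as well, with a median of 259 bp.

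Another list sometimes had a single peak over both the flanking peak and a fresh frozen peak. This was so for 2879 of the 13893 in the second library of the pair (20.7%, 20.1 to 21.4), where 46.2% of all peaks met a fresh frozen peak. At 50 °C/40 min it was 1217 of the 8952 met (13.6%, 12.9 to 14.3; 49.2% of that list was on fresh frozen peaks), at 65 °C/40 min 1089 of 8511 (12.8%, 12.1 to 13.5; 49.5%) and at 50 °C/5 min 261 of 4152 (6.29%, 5.59 to 7.07; 55.6%). Such joining was commoner close by, with 44.5% of the peaks within 500 bp and 10.3% of those beyond in the second library, and 31.2% and 5.59% at 50 °C/40 min. In each of these lists, most flanking peaks that were found again were met by no peak on a fresh frozen site. Flanking peaks met no fresh frozen peak by rule, and a joining peak had to span the distance between. The low joined shares thus follow in part from the choice of regions, and the whole lists are an unlike background. The peaks that met flanking peaks were lower at the median than their whole lists. Their values were 8.22 at 50 °C/40 min, 7.08 at 65 °C/40 min and 4.75 at 50 °C/5 min, against 8.90, 8.09 and 5.65 for all peaks of these lists.

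H3K4me2 was scarce at flanking peaks. Only 225 of the 13893 met an H3K4me2 peak (1.62%, 1.42 to 1.84), against 13.1% of all first-library peaks, 3.13% (2.58 to 3.80) of far peaks and 30.3% (29.7 to 30.9) of peaks on fresh frozen sites. The rule left out every peak on a fresh frozen site, and 70.2% of the H3K4me2 list met a fresh frozen peak. A low share thus follows in part from the choice of regions. It was also low, at 2.55%, for first-library peaks not shared with the second library, on fresh frozen sites or not. The difference from peaks on fresh frozen sites was -28.7 points, averaged -28.4 ± 2.40 over the chromosomes (SD) and was negative on 19 of 19. Width and height were also larger on fresh frozen sites. Among flanking peaks, the H3K4me2 share was 1.21%, 1.84%, 1.70% and 1.72% in the 4 width classes, from the narrowest to the widest. In the 4 classes of first-library value it was 1.26%, 1.35%, 1.65% and 2.20%, from the lowest to the highest. Peaks on fresh frozen sites were not split in this way, so the part of width and height was not tested. From far peaks the difference was -1.52 points, averaged -1.71 ± 1.58 and was negative on 17 of 19. This difference was -0.87 points when sites of the FiT-seq H3K27Ac list were left out, -0.79 and -0.60 points in the second and the first library alone, and 0.17 points with a limit of 2000 bp, so it depended on the rule. For the 225, the median −log10 q-value in the H3K4me2 list was 5.35, against 5.52 for that whole list.

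The H3K4me2 share had a low stretch between the fresh frozen edge and the distant peaks. It was 4.79% (3.40 to 6.72) within 100 bp, 4.66% (3.66 to 5.90) at 101 to 250 bp, 2.56% (1.98 to 3.30) at 251 to 500 bp and 0.970% (0.658 to 1.43) at 501 to 1000 bp. In the steps from there to 10000 bp it stayed between 0.461% and 0.910%. It was 2.69% (1.78 to 4.03) at 10001 to 20000 bp, 4.32% (2.84 to 6.52) at 20001 to 50000 bp and 9.63% (7.25 to 12.7) farther away. Within 500 bp, 152 of 4246 flanking peaks (3.58%, 3.06 to 4.18) met an H3K4me2 peak and beyond it 73 of 9647 (0.757%, 0.602 to 0.950), with the share within 500 bp the higher on 18 of 19 chromosomes. For 41 of the 225, all within 500 bp, the H3K4me2 peak also met a fresh frozen peak, as did 70.2% of that whole list. Of the 100 far peaks with H3K4me2, 21 met one of the 500 highest of the 11751 H3K4me2 peaks, as did 6 of the 225 flanking peaks. Of these 100 far peaks, 13 lay at 5001 to 10000 bp and 44 beyond 50000 bp.

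**Figure D5:**
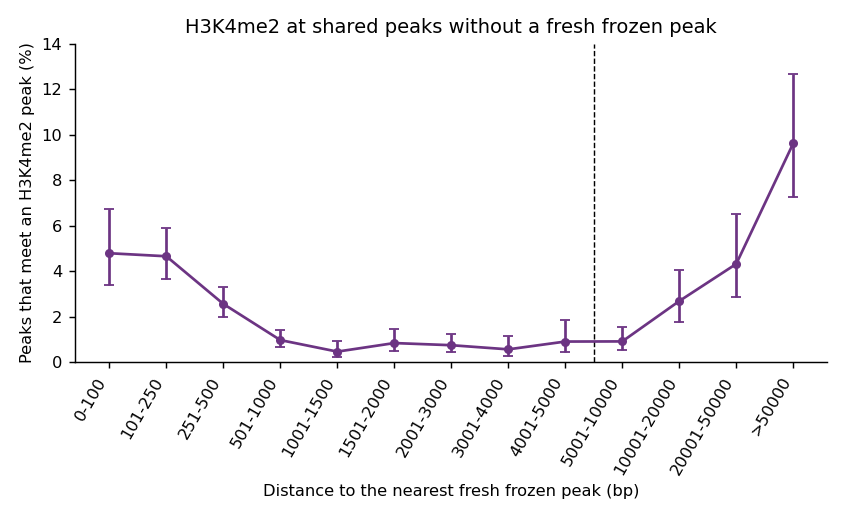
Share of shared peaks without a fresh frozen peak that met an H3K4me2 peak (vertical axis, percent, Wilson 95% intervals), by distance to the nearest fresh frozen peak (horizontal axis, unequal steps); the dashed line is the 5000 bp limit. The share is 4.79% within 100 bp, under 1% from 501 to 10000 bp and 9.63% beyond 50000 bp.

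The flanking peaks of highest mean rank with H3K4me2 were of differing kinds. At chromosome 14, 29831049 to 29832881, an 1833 bp peak with values of 37.0 and 26.8 in the pair met an H3K4me2 peak of 251 bp with a value of 2.70 (rank 11619), near the end of that list. Chromosome 5, 54390963 to 54391782, 198 bp from a fresh frozen peak ranked 3085, had 19.2 and 43.0 in the pair and 3.54 for H3K4me2. Chromosome 9, 99040767 to 99042029, had 23.9 and 26.1 in the pair and 4.46 for H3K4me2, and its nearest fresh frozen peak met H3K4me2 as well. In both of these, the second-library peak also covered the nearest fresh frozen peak. Chromosome 2, 165855443 to 165857239, had 27.8 and 21.8, and 6.58 for H3K4me2. The last, chromosome 5, 114623009 to 114623269, stood apart by its H3K4me2 value of 35.7 (rank 91). It was 261 bp wide in the first library, and 264, 259, 265, 258 and 258 bp wide in the second library, at 50 °C/5 min, at 65 °C/40 min, in the FiT-seq H3K27Ac list (rank 26) and for H3K4me2. It had no peak at 50 °C/40 min. Similarly narrow was chromosome 4, 154282681 to 154282934, the flanking peak found in most other lists (5 of 6), with a FiT-seq H3K27Ac rank of 49 and an H3K4me2 rank of 236. Its width was 254 bp in the first library and 162 to 255 bp in the others. Whether reads pile up at these sites without any antibody was not tested.

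Such sites were few. In all, 8 flanking peaks (0.0576%) met one of the FiT-seq H3K27Ac peaks, against 0.0757% of the whole first library and 22 of the 3190 far peaks (0.690%). They were 146 to 261 bp wide and lay 1127 to 3711 bp from a fresh frozen peak, and 4 of the 8 also met an H3K4me2 peak, as did 22 of the 22 far ones. The 80 °C, 40 min list, with 65 peaks, met 0 flanking peaks, 3 far peaks and 47 peaks on fresh frozen sites, where 0.0841% of the whole first library met it.

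The fresh frozen peaks nearest to flanking peaks numbered 8882, or 18.8% of the 47238 on these chromosomes. Of these, 5812 (65.4%) were nearest to 1 flanking peak, 1863 to 2 and 1207 (13.6%) to at least 3, up to 11. Their median −log10 q-value was 10.2 and their median width 374 bp, against 9.70 and 340 bp for the other fresh frozen peaks. The first library met 92.6% of them, against 68.9% of the others. Among fresh frozen peaks that it met, those nearest to a flanking peak were lower and narrower at the median, with 10.9 and 396 bp, against 13.2 and 414 bp for the others. In 5 equal classes of fresh frozen value, from the highest to the lowest, 19.9%, 19.3%, 19.2%, 18.0% and 17.6% were nearest to a flanking peak, whereas the share met by the first library was 97.6% in the highest class and 48.7% in the lowest. Of the 8882, 14.1% met an H3K4me2 peak, against 16.8% of the other fresh frozen peaks and 16.3% of all. Among those met by the first library the H3K4me2 shares were 15.0%, against 22.0% of the others. Flanking peaks beside a fresh frozen peak with H3K4me2 met an H3K4me2 peak themselves in 84 of 1743 cases (4.82%), and those beside one without in 141 (1.16%).

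Of the 15859 fresh frozen peaks with a flanking peak within 5000 bp, the 5 with most of them were of low rank. Around a 174 bp fresh frozen peak at chromosome 19, 55185801 to 55185974, with a value of 6.10 and rank 35813, 12 flanking peaks lay within 5000 bp, 5 on its left and 7 on its right. They reached from 55180147 to 55190690, were 166 to 1251 bp wide and had values of 4.64 to 15.2 in the first library and 5.57 to 12.5 in the second. All 12 met a peak at 50 °C/40 min, 10 at 65 °C/40 min, 2 at 50 °C/5 min, and none an H3K4me2 peak. A second fresh frozen peak in the same row, at 55184540 to 55184693, had 11 within 5000 bp. At chromosome 8, 40721614 to 40721834, 11 flanking peaks of 146 to 681 bp surrounded a peak ranked 40836, of which 7 were found at 50 °C/40 min, 10 at 65 °C/40 min and 1 at 50 °C/5 min. Chromosome 15 had a pair of rows of 10. Around 75658217 to 75658495, 9 were found at 50 °C/40 min, 6 at 65 °C/40 min and 5 at 50 °C/5 min. Around 85513772 to 85513937, 5, 5 and 8 were found in the same order, so this row was found most often after 5 min at 50 °C. All of these fresh frozen peaks were met by the first library, and none met an H3K4me2 peak.

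Flanking peaks occurred on every chromosome in similar proportion. They made up between 77.1% (chromosome 2) and 86.3% (chromosome 13) of the shared peaks without a fresh frozen peak. For each fresh frozen peak there were between 0.237 (chromosome 3) and 0.365 (chromosome 11) flanking peaks. Taking the regions from the second library in place of the first gave 15912 flanking peaks, 82.9% of its shared peaks without a fresh frozen peak, with a median distance of 961 bp. Of these, 64.6% met a peak at 50 °C/40 min, 61.7% at 65 °C/40 min, 30.1% at 50 °C/5 min and 1.81% for H3K4me2. Both sets of regions were chosen by overlap of the same 2 libraries, so their likeness follows in part from the choice.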

How the data were processed

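Peaks of 9 libraries were analysed, and the FFPE input sample was not used here. Tools named in the submitters' processing notes are BWA and MACS2, and the build is mm9. Versions, thresholds, filters and the control library are not given in the sources used here. The authors deposited 1 list per library with chromosome, start, end, name and a value, which was read as the −log10 of a q-value from its floor of about 2 in the long lists. The value depends on depth, which is unknown, and on background. Peaks on chromosomes 1 to 19 were kept and starts are printed 1-based. Where several peaks of a list met a region, the highest is given. The distance is the number of bases between edges. The regions, distance steps and comparisons were chosen with earlier results of these data known. Named regions are the 10 flanking peaks of highest mean rank in the pair, the 5 widest, the 5 found in most lists, the 5 highest with H3K4me2, those at either end of the distance limit, and the 5 fresh frozen peaks with most flanking peaks. No annotation or sequence of mm9 was used here, so regions carry no gene names and the planned gene lists were not run. Alternatives were another overlap rule, a minimum value of 5, closed gaps, other distance limits, and either library of the pair alone. Chosen after seeing the data were leaving out peaks on FiT-seq H3K27Ac peaks and taking the regions from the second library, whose values gave the SD of the pair. The kit behind each library is not given in the sources used here. The overlap, distance and gap-closing steps were tested on simulated lists. Software was numpy 2.4.6 and pandas 2.3.3 under Python 3.11.15, with matplotlib 3.10.9 for plots.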

Additional observations from a re-analysis of the deposited data

How the results depend on the processing

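A value other than the number of peaks was taken as moved when it differed by more than the SD of the pair, from regions of the first and of the second library. This SD was small (0.0935 points for the share found at 50 °C/40 min), so most values moved. Both sets of regions come from overlap of the same 2 libraries, so the SD does not measure variation between libraries. The number of flanking peaks was taken as moved when it changed by more than 1.5 times. It was 11868 with an overlap of 50% of the shorter peak, 9990 at a limit of 2000 bp and 15321 at 10000 bp, all within that range. The direction of flanking minus far held in every setting for both lists of 40 min. It turned at 50 °C/5 min once gaps up to 500 bp were closed (-0.10 points) and for H3K4me2 with a limit of 2000 bp (0.17 points); the cause was not tested.

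In the following, shares found at 50 °C/5 min, 50 °C/40 min, 65 °C/40 min and for H3K4me2 come in this order. With an overlap of 50% of the shorter peak, the median distance was 927.5 bp, the first 3 shares were 26.8%, 60.3% and 57.2%, and their differences from far peaks 2.55, 14.8 and 14.2 points. There, 11.0% were joined at 65 °C/40 min, 87.3% had their fresh frozen peak met and 22.9% had one on both sides.

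With values of at least 5, there were 9167 flanking peaks (76.3% of shared peaks without a fresh frozen peak). The shares were 21.7%, 68.5%, 60.2% and 1.08%, the first 3 differences 1.72, 13.0 and 14.7 points, and 20.7% had fresh frozen peaks on both sides.

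After closing gaps up to 76 bp, the difference at 50 °C/40 min was 16.0 points, and 18.0% and 17.4% were joined at 40 min. After closing gaps up to 500 bp, 3652 peaks (64.5%) had a median distance of 2026 bp. Of these, 63.7% were found at 50 °C/40 min and 1.40% for H3K4me2. The differences at 40 min were 12.7 and 13.5 points and for H3K4me2 -3.62 points. Joined were 21.8% and 18.9%, 84.2% had their fresh frozen peak met, and 18.9% had one on both sides.

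At a limit of 2000 bp, 58.5% of the peaks were flanking, with a median distance of 616 bp and shares of 29.6%, 61.7% (65 °C) and 1.97% (H3K4me2). Differences were 0.83, 7.26 and 8.29 points, 18.6% and 17.3% were joined and 7.57% had fresh frozen peaks on both sides. At 10000 bp, 89.7% were flanking, with a median of 1228 bp and shares of 63.7% and 60.3% at 40 min. Differences were 5.15, 22.0, 19.6 and -3.38 points, and 43.6% had fresh frozen peaks on both sides. Without peaks on FiT-seq H3K27Ac peaks, the differences were 15.6 points at 50 °C/40 min and -0.87 points for H3K4me2.

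With either library alone, the ranges were 23784 to 25801 flanking peaks, 77.7% to 79.2% flanking, and medians of 1015 to 1093 bp. Shares ranged from 19.5% to 22.9%, 47.0% to 52.4%, 44.0% to 49.2% and 1.39% to 1.53%. Differences ranged from 4.80 to 5.88, 16.4 to 19.2, 15.8 to 18.6 and -0.79 to -0.60 points. Joined were 13.3% to 15.8% and 12.5% to 14.8%, with 90.0% to 90.1% having their fresh frozen peak met and 21.3% to 21.9% one on both sides. No paired analysis was possible because no result comes from a test, and only 1 condition had 2 libraries.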
